A study of Ovis aries with 7 samples.

Results

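Striatal projection neurons read dopamine and adenosine through a G protein and cyclase pathway, and 6 genes of that pathway are described here in nuclei of the sheep striatum. The members were the features whose gene symbol was GNAL (ENSOARG00020023323), ADCY5 (ENSOARG00020010155), RGS9 (ENSOARG00020010081), RGS6 (ENSOARG00020005779), PPP1R1B (ENSOARG00020014711) or GUCY1A1 (ENSOARG00020020444), 6 of the 26479 features counted. Each symbol matched 1 feature. OVT73 sheep are a model of Huntington's disease that carries a human HTT transgene with an expanded CAG repeat under the human HTT promoter. The striatum of 6 OVT73 and 6 control sheep without the transgene, all 5 years old, was processed to single nuclei, which were sequenced as 7 droplet libraries. Pools of 2 animals made up all 3 OVT73 libraries and control libraries 3 and 4, whereas 1 animal gave control library 1 and 1 gave control library 2. Libraries are numbered within a group in the order of their deposition, and the library was the replicate. Since the pooled sheep were not separated here, the tests measure the spread between libraries and not between sheep.

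GNAL encodes the alpha subunit of Golf, the stimulatory G protein that couples the D1 dopamine receptor and the adenosine receptor encoded by ADORA2A of the striatum to adenylyl cyclase. ADCY5 encodes the main adenylyl cyclase of striatal neurons, which Golf stimulates and which Gi, the G protein of the D2 receptor, inhibits. RGS9 and RGS6 encode R7 family regulators of G protein signalling, which speed GTP hydrolysis by Gi and Go alpha subunits in complex with the beta subunit encoded by GNB5. PPP1R1B encodes DARPP-32, an inhibitor of protein phosphatase 1 when phosphorylated by the cAMP-dependent kinase. GUCY1A1 encodes an alpha subunit of soluble guanylyl cyclase, the nitric oxide receptor, which makes cGMP.

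After filtering, 32599 nuclei were kept, 17439 of OVT73 and 15160 of control libraries, from libraries of 20887378 to 70473426 UMIs. Clusters were named from marker genes, with the 6 genes and the other pathway genes left out of the clustering, and "-like" marks a name that rests on transcripts alone. The 11 named classes held 91.0% of the nuclei. Medium spiny neurons (MSNs), the GABAergic projection neurons of the striatum, fell into 2583 D1 MSN-like, 2053 D2 MSN-like and 318 eccentric MSN-like nuclei. Their median depth was 22440, 23099 and 19279 UMIs, against 1180.5 to 3594.5 in the glial and neuroblast-like classes. The D1 receptor gene was not analysed here, and the other 4 of 5 listed D1 markers were used, TAC1, EBF1, PDYN and ISL1. The D1 MSN-like cluster was named on TAC1 and EBF1, the D1 markers raised in it over the other MSN clusters. For the D2 MSN-like cluster these were DRD2 and PENK. Barcode sequences found in more than 1 library numbered 159 of 35272, and each was kept as a separate nucleus. Levels by class are UMI counts scaled to a common library total (CPM), made from the UMIs summed over the nuclei of a class in 1 library, given as the mean ± SD of the 7 libraries. They are compared between classes for 1 gene at a time and not between genes. They were not tested between classes, since the classes come from clustering the same nuclei.

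GNAL was highest in the D1 and D2 MSN-like classes. Its level was 504 ± 42.8 CPM in D2 MSN-like, 478 ± 41.8 in D1 MSN-like and 326 ± 46.4 in eccentric MSN-like nuclei (SD, n = 7). The library ranges of D1 and D2 overlapped, whereas the D1 range (412 to 551 CPM) lay above the eccentric range (255 to 410 CPM). In SST/NPY and PV/Th interneuron-like nuclei GNAL was at 89.5 ± 28.7 and 83.5 ± 11.8 CPM. The other 6 classes had means of 26.9 to 43.3 CPM and overlapped each other from neighbour to neighbour in the order. The lowest PV/Th library (71.4 CPM) was above the highest neuroblast-like library (56.6 CPM), the next class. Cholinergic interneuron-like nuclei, further down the order, reached 97.9 CPM in control 2, and the SST/NPY range went down to 37.0 CPM. Microglia-like nuclei, also among these 6 classes, were at 37.7 ± 9.1 CPM, and the means of the other glial classes were not above that level.

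ADCY5 was highest in the same neurons and had its next highest level in interneurons. The MSN classes had 845 ± 165 (D2), 826 ± 159 (D1) and 647 ± 151 CPM (eccentric), and the ranges of all 3 overlapped. The lowest MSN library, at 475 CPM in eccentric nuclei, was above the highest PV/Th interneuron-like library at 231 CPM. Levels in PV/Th, SST/NPY and cholinergic interneuron-like nuclei were 181 ± 26.1, 142 ± 48.0 and 99.3 ± 25.8 CPM. Oligodendrocyte-like nuclei carried 69.6 ± 17.0 CPM, OPC-like nuclei (oligodendrocyte precursors) 54.4 ± 4.4 CPM and astrocyte-like nuclei 37.0 ± 10.7 CPM. Microglia-like nuclei had 7.6 ± 5.4 CPM, and their highest library (17.4 CPM) was below the lowest astrocyte-like library (24.3 CPM). ADCY5 in oligodendrocyte-like nuclei was 9.12 times the microglia-like level as a ratio of means, and 3.18 to 27.1 times within a library. The microglia-like level rested on 36 UMIs, with as few as 1 in a library, so these ratios are imprecise. All 4 oligodendrocyte-like clusters held ADCY5, at 71.3 to 86.2 CPM over pooled UMIs.

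RGS9 followed the same order at the top. D2 and D1 MSN-like nuclei had 258 ± 59.4 and 250 ± 59.9 CPM, and eccentric MSN-like nuclei 118 ± 34.6 CPM. The lowest D1 library (191 CPM) was above the highest eccentric library (172 CPM). From the eccentric class downward every neighbour overlapped, from SST/NPY interneuron-like nuclei at 80.0 ± 17.6 CPM to oligodendrocyte-like nuclei at 24.3 ± 6.4 CPM. Astrocyte-like nuclei had 62.4 ± 11.6 CPM, and their lowest library (51.2 CPM) was above the highest microglia-like library (32.1 CPM).

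RGS6 had another pattern from the other 5 genes. Its highest mean was in cholinergic interneuron-like nuclei, at 4983 ± 2135 CPM from only 50 nuclei, 4 to 14 in a library. Their 7 library values ran from 1077 CPM in control 2 to 7582 CPM in OVT73 2. Control 2 held 22 UMIs of RGS6 among 20428 UMIs of 6 nuclei, and it alone overlapped the range of D1 MSN-like nuclei. D1 MSN-like nuclei were at 1124 CPM in that library. The other 6 cholinergic values ran from 4038 to 7582 CPM, above the highest D1 library (1324 CPM). D1 MSN-like nuclei had 1158 ± 112 CPM and D2 MSN-like nuclei 624 ± 112 CPM, and the D1 range (1012 to 1324 CPM) lay wholly above the D2 range (489 to 827 CPM). In eccentric MSN-like nuclei RGS6 was low, at 15.6 ± 18.3 CPM, which overlapped the microglia-like (18.4 ± 9.8) and oligodendrocyte-like levels (10.7 ± 3.7). The eccentric class held 111 UMIs of RGS6, at 56.6 CPM in control 2 and at 2.1 to 11.6 CPM in the other 6 libraries. With the members and listed genes kept in the clustering, the class held 434 nuclei in place of 318 and RGS6 was at 77.4 CPM. Outside neurons RGS6 was present in OPC-like nuclei at 321 ± 116 CPM and in astrocyte-like nuclei at 191 ± 63.4 CPM. Every OPC-like and astrocyte-like library, the lowest at 204 and 91.2 CPM, was above the highest microglia-like library (32.0 CPM). PV/Th interneuron-like nuclei had 152 ± 109 CPM, with a wide range of 53.7 to 373 CPM, and 483 CPM with that clustering.

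PPP1R1B was detected at low counts, 3825 UMIs over all nuclei kept against 36648 of RGS9. D2, D1 and eccentric MSN-like nuclei had 29.5 ± 12.7, 27.8 ± 12.5 and 16.0 ± 8.0 CPM, and the library ranges of all 3 overlapped. Astrocyte-like nuclei had 10.6 ± 5.0 CPM from 72 UMIs. In PV/Th and SST/NPY interneuron-like nuclei 7 UMIs each were counted. Cholinergic interneuron-like nuclei held 0 of 1322016 UMIs, which allows a level of up to 2.27 CPM if 3 UMIs are taken as the limit. This limit covers counting error only.

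GUCY1A1 was highest in D2 MSN-like nuclei at 355 ± 68.7 CPM, followed by D1 at 238 ± 54.1 and eccentric MSN-like nuclei at 123 ± 25.3 CPM. SST/NPY interneuron-like nuclei, whose neurons make the nitric oxide that activates this cyclase, had 99.0 ± 15.9 CPM. That level overlapped the eccentric MSN range, and its lowest library (81.9 CPM) was above the highest OPC-like library (63.0 CPM). The other interneuron classes were near 0, with 4.3 ± 4.0 CPM in PV/Th and 4.7 ± 5.3 CPM in cholinergic interneuron-like nuclei. The PV/Th level depended on the clustering and was 64.4 CPM when the members and listed genes were kept in it, with 531 nuclei in the class in place of 279. Among glia, OPC-like nuclei had the highest mean, 47.6 ± 11.1 CPM, but their range (28.7 to 63.0 CPM) overlapped that of astrocyte-like nuclei (6.3 to 37.3 CPM). Oligodendrocyte-like and microglia-like nuclei were at 10.1 ± 3.0 and 6.1 ± 3.8 CPM.

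**Figure D1:**
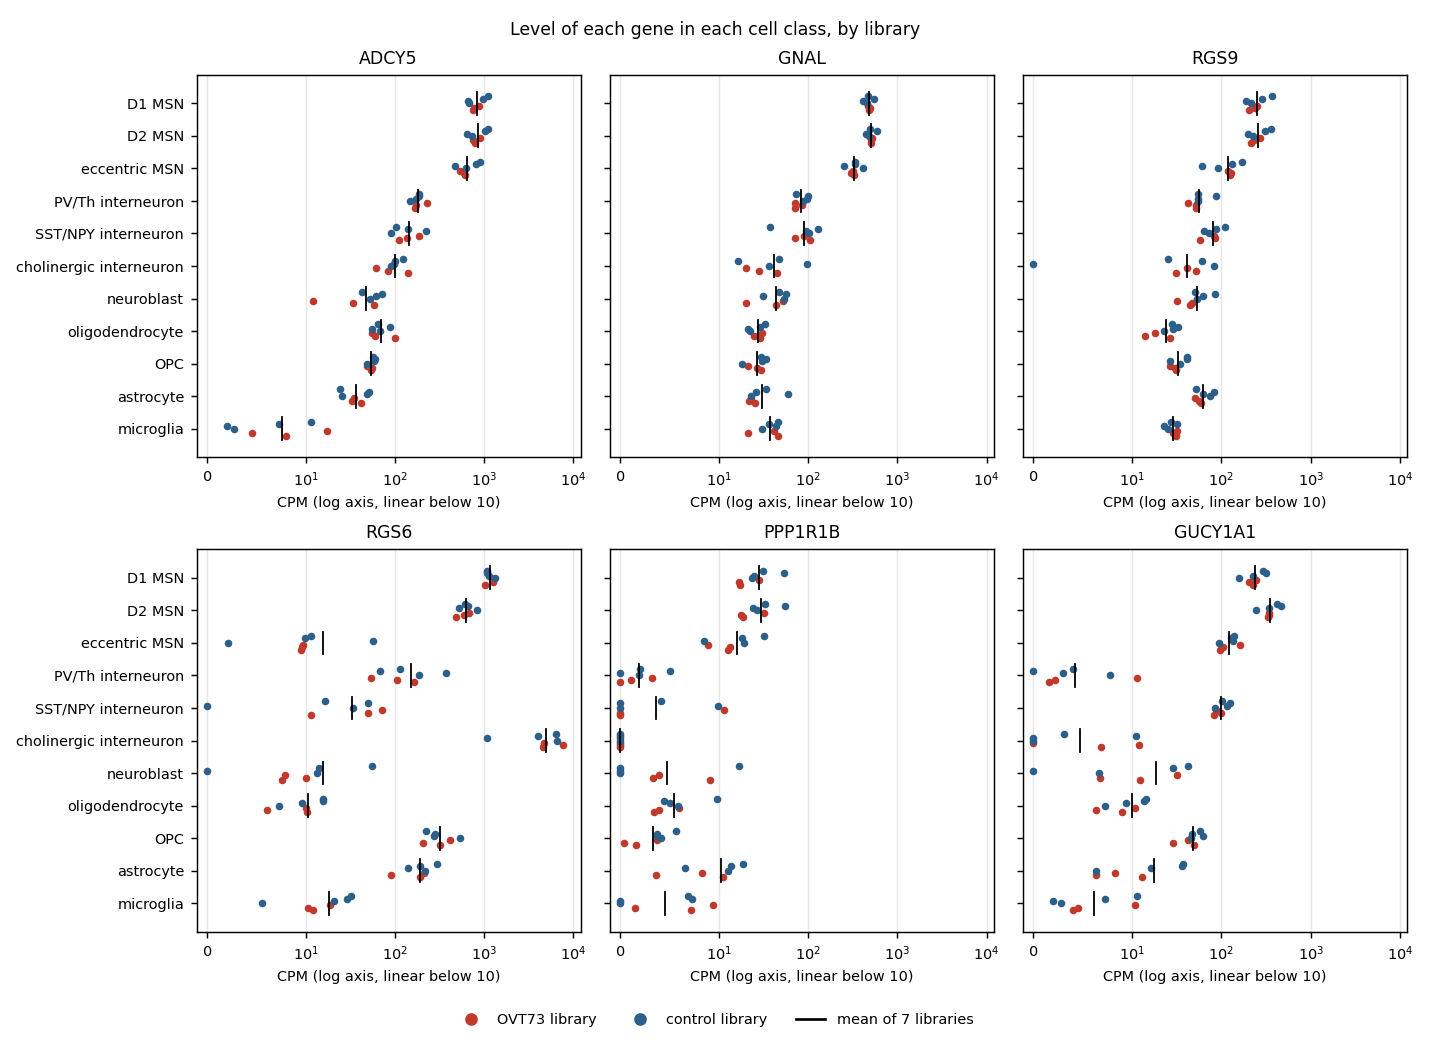
CPM of each gene (x axis, logarithmic above 10 CPM and linear below) in each of the 11 cell classes (y axis), with 1 point per library, red for OVT73 and blue for control, and a black bar at the mean of the 7 libraries. GNAL, ADCY5, RGS9, PPP1R1B and GUCY1A1 are highest in the D1 and D2 MSN rows, whereas RGS6 has its highest mean in cholinergic interneurons (4983 CPM). Control 2, with 22 UMIs of RGS6 there, lies within the D1 MSN range, and every other cholinergic point lies above it. In eccentric MSNs RGS6 is at 15.6 CPM (77.4 CPM when clustered with the members and listed genes).

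Seen nucleus by nucleus at 5000 UMIs, all members but PPP1R1B were found in most D1 and D2 MSN-like nuclei. To compare shares at 1 depth, each nucleus was thinned to 5000 UMIs, which left out 23 D1 and 23 D2 MSN-like nuclei. At that depth ADCY5 was found in 95.5% of D1 and 95.7% of D2 MSN-like nuclei (99.7% and 99.4% unthinned), and GNAL in 88.7% and 89.3% (99.3% of both unthinned). RGS6 was found in 94.0% of D1 and 78.9% of D2 MSN-like nuclei (97.9% and 91.8% unthinned), with medians of 5 and 2 UMIs, and in 3.5% of eccentric MSN-like nuclei (17.9% unthinned). GUCY1A1 was found in 63.9% of D1 and 79.2% of D2 MSN-like nuclei (94.7% and 98.6% unthinned). PPP1R1B was found in 12.2% and 13.5% (42.2% and 42.3% unthinned). At 1000 UMIs, a depth that most glial nuclei reach, RGS6 was found in 81.6% of cholinergic interneuron-like, 61.9% of D1 MSN-like, 37.4% of D2 MSN-like, 19.8% of OPC-like and 11.2% of astrocyte-like nuclei. Microglia-like nuclei gave 1.6% for RGS6 and 0.7% for ADCY5, where oligodendrocyte-like nuclei gave 6.8% for ADCY5. For GNAL microglia-like nuclei gave 3.4%, against the 2.8% of oligodendrocyte-like and OPC-like nuclei and the 3.4% of astrocyte-like nuclei. For RGS9 microglia-like nuclei gave 3.1%, against 2.7% in oligodendrocyte-like, 3.1% in OPC-like and 5.6% in astrocyte-like nuclei. Whether these glial UMIs came from the glia themselves or from RNA of other cells was not tested. Before thinning, the microglia-like shares were 2.5% for RGS6, 1.1% for ADCY5, 5.7% for GNAL and 4.2% for RGS9, at a median depth of 1417 UMIs against 1769 in oligodendrocyte-like nuclei.

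The genes whose levels over the 11 classes were most like each member were found among 11220 genes with at least 10 CPM in some class, by Pearson's r of log2(CPM + 1). The r values are descriptions over classes that share libraries. GNAL was most like ALOXE3 (r = 0.98) and a gene with no symbol, followed by PDE10A (r = 0.97), the MSN phosphodiesterase, which was itself a marker used for naming. RGS9 was most like RIC8B (r = 0.97), which encodes a chaperone of Golf alpha subunits, followed by a gene with no symbol and STK32C (r = 0.96 each). ADCY5 was most like a gene with no symbol, TMTC1 (r = 0.95) and TTC7B (r = 0.94). PPP1R1B was most like ZFR (r = 0.96), ICAM5 (r = 0.94) and ARMC3 (r = 0.94), and GUCY1A1 was most like SOLD1 (r = 0.97), a gene with no symbol and STUM (r = 0.94). RGS6 had no pattern as close, with SBSN, UTP4 (r = 0.84 each) and CNTN6 (r = 0.82) nearest. Among the members, GNAL and RGS9 were the closest pair (r = 0.94), and RGS6 had r between -0.11 (PPP1R1B) and 0.35 (RGS9) with the others.

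D1 and D2 MSNs were compared to learn which of these genes separate the neurons of the direct and the indirect pathway. Nuclei of the D1 and D2 MSN-like clusters were sorted by marker UMIs alone, at least 2 UMIs of the own list and at least 4 times those of the other list, which gave 2458 D1 and 1048 D2 nuclei. The D1 nuclei included 2420 of the 2583 in the D1 cluster, but the D2 nuclei only 1045 of the 2053 in the D2 cluster. Left out were 881 nuclei with under 2 UMIs of either list and 249 under the ratio. The sorted D2 nuclei are thus a more selected part of their cluster. UMIs were summed by type and library, 182 to 553 D1 and 61 to 321 D2 nuclei in a library, and compared within libraries with edgeR's quasi-likelihood test, adjusted by Benjamini-Hochberg over all 12177 genes tested. The values that follow are CPM scaled by TMM factors. Over all genes 796 were higher and 713 lower in D2 among 1509 called, and without TMM factors 586 were higher among 1476. Of the 6 members, 5 had an adjusted p under 0.05, where 12.4% of all genes tested did: 4 were higher and 1 was lower in D2 nuclei. The members were chosen with earlier results of these data known, and no genes matched for level were compared.

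RGS6 was the member that fell. In OVT73 libraries 1 to 3 it was at 1047, 1358 and 1232 CPM in D1 and at 492, 628 and 684 CPM in D2 nuclei. In control libraries 1 to 4 it was at 1270, 1118, 1034 and 1065 CPM in D1 and at 823, 523, 654 and 663 CPM in D2 nuclei. Each D1 sum was above each D2 sum, with no overlap. The log2 fold change of D2 over D1 was -0.87 ± 0.08 (SE, n = 7 libraries; edgeR adjusted p = 0.000585), or 0.546-fold, lower in 7 of 7 libraries. In size it exceeded 98.5% of the genes tested.

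GUCY1A1 rose. It was at 236, 216 and 243 CPM in D1 and 353, 404 and 363 CPM in D2 nuclei of OVT73 libraries 1 to 3. In control libraries 1 to 4 it was at 152, 219, 285 and 289 CPM in D1 and at 243, 351, 440 and 434 CPM in D2 nuclei. The groups overlapped across libraries, and control 1 was low in both types, but D2 was above D1 within each of the 7 libraries. The log2 fold change was 0.66 ± 0.04 (edgeR adjusted p = 4.85e-22), or 1.58-fold.

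ADCY5, GNAL and RGS9 differed by 0.11 to 0.14 on the log2 scale. ADCY5 was 817 ± 142 CPM in D1 and 903 ± 161 CPM in D2 nuclei, a log2 fold change of 0.14 ± 0.03 (edgeR adjusted p = 0.000396). GNAL was 472 ± 38.4 and 521 ± 34.5 CPM, with 0.14 ± 0.03 (edgeR adjusted p = 0.00107). RGS9 was 248 ± 56.1 and 268 ± 58.4 CPM, with 0.11 ± 0.04 (edgeR adjusted p = 0.0233). Each was higher in D2 in 7 of 7 libraries, for which the exact two-sided sign-flip permutation p was 0.0156, the smallest that 7 libraries can give. The sorted D2 nuclei were deeper, with a median of 27522.5 UMIs against 22681 in D1. With nuclei taken by cluster in place of the sort, ADCY5 gave 0.03 (edgeR adjusted p = 0.49) and RGS9 0.04 (edgeR adjusted p = 0.48), so that these calls depended on how nuclei were chosen, while GNAL kept its call at 0.08 (edgeR adjusted p = 0.030). The RGS9 call was also lost without control library 1 (edgeR adjusted p = 0.052), control library 3 (0.083) or OVT73 library 3 (0.061). Without the library block the calls of ADCY5, GNAL and RGS9 were lost and those of RGS6 and GUCY1A1 remained. Of the 6 members 2 were then called, where 139 of all 10990 genes tested were. PPP1R1B was at 17.7 to 49.9 CPM in D1 and 20.1 to 47.1 CPM in D2 nuclei, 0.13 ± 0.08 (edgeR adjusted p = 0.31), higher in 5 of 7 libraries.

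**Figure D2:**
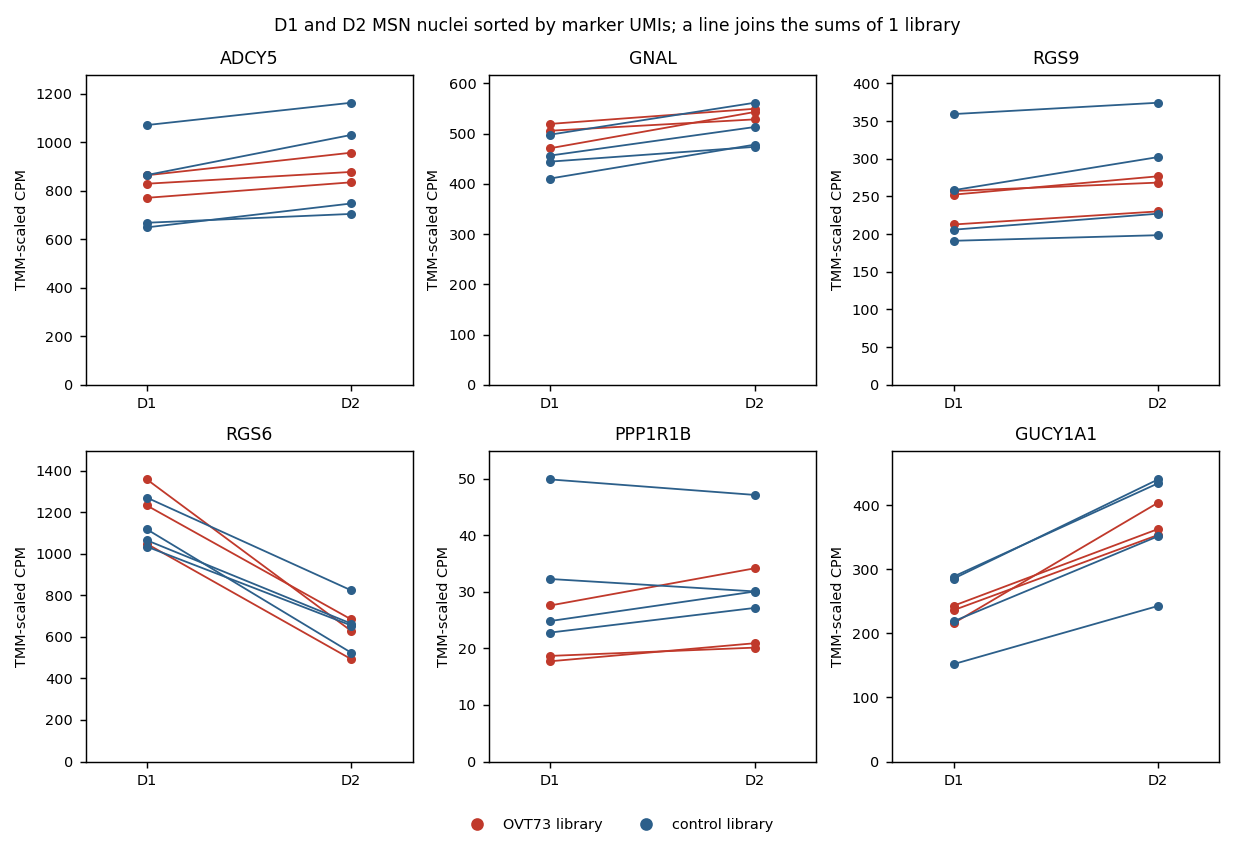
TMM-scaled CPM (y axis, from 0) of each gene in the D1 and D2 MSN nuclei sorted by marker UMIs, with a line joining the 2 sums of each library, red for OVT73 and blue for control. The lines of RGS6 fall and those of GUCY1A1 rise in all 7 libraries, and those of ADCY5, GNAL and RGS9 rise slightly.

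The other genes of the pathway were taken from lists of G protein subunits, RGS proteins, chaperones, cyclases, cyclic nucleotide kinases and DARPP-32 relatives. Of 63 that were tested between D1 and D2 nuclei, 14 rose and 7 fell in D2 (33.3% called, against 12.4% of all genes), with a median log2 fold change of 0.04 against -0.01 over all genes. These lists, too, were chosen with earlier results of these data known, and the shares were not matched for level. The values of these genes are from the sorted nuclei only. Whether their calls held with nuclei taken by cluster was not examined. Among 10 G protein beta and gamma subunits, 3 fell and 0 rose. GNG12 fell by 2.05 on the log2 scale (SE 0.31, edgeR adjusted p = 0.00669), from 53.8 to 14.3 CPM. GNG2 fell by 1.48 (SE 0.15, edgeR adjusted p = 1.26e-11), from 11.1 to 3.8 CPM. GNB4 fell by 0.59 (edgeR adjusted p = 1.21e-08). GNG7, which encodes the gamma subunit that pairs with Golf, gave 0.01 ± 0.07 and GNB1 0.10 ± 0.04, and neither passed the test.

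Of 8 G alpha genes besides GNAL, GNAI1, which encodes an inhibitory subunit, fell by 0.69 (edgeR adjusted p = 3.37e-07), and GNAO1, the Go alpha subunit, rose by 0.19 (edgeR adjusted p = 8.79e-06). The listed genes GNAS, GNA14, RGS11, PPP2CA and PPP2CB matched no feature by symbol and were not tested. Of the partners of the R7 proteins, GNB5 rose by 0.13 (edgeR adjusted p = 0.0222), whereas RGS7, the close relative of RGS6, gave 0.01 ± 0.03 and RGS7BP -0.08 ± 0.04. Among 7 other RGS genes, RGS17, RGS8, RGS14 and RGS2 rose, by 0.24 to 0.40, and RGS12 fell by 0.58. The chaperone gene RIC8B gave 0.09 ± 0.03 (edgeR adjusted p = 0.056).

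Of 8 other adenylyl cyclase genes, ADCY3 (0.15) and ADCY9 (0.14) rose, ADCY8 fell by 0.35 (edgeR adjusted p = 0.0175), and ADCY1, ADCY2, ADCY6, ADCY7 and ADCY10 did not pass. The other subunits of soluble guanylyl cyclase rose with GUCY1A1 but by less: GUCY1A2 by 0.18 (edgeR adjusted p = 0.000231) and GUCY1B1 by 0.15 (edgeR adjusted p = 0.00284). PRKG1, the cGMP-dependent kinase gene downstream of that cyclase, rose by 0.25 (edgeR adjusted p = 6.00e-07), from 1093 to 1290 CPM. The catalytic subunit gene of the cAMP-dependent kinase PRKACB gave -0.01 ± 0.03. PRKAR1B, the gene of a regulatory subunit of that kinase, rose by 0.25 (edgeR adjusted p = 0.0121), higher in D2 in 5 of 7 libraries. Of 12 DARPP-32 relatives, kinases and phosphatases, PPP1R1A, the phosphatase inhibitor closest to DARPP-32, fell by 0.25 (edgeR adjusted p = 0.0161), and the calcineurin subunit genes PPP3R1 and PPP3CA rose by 0.15 and 0.09.

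**Figure D3:**
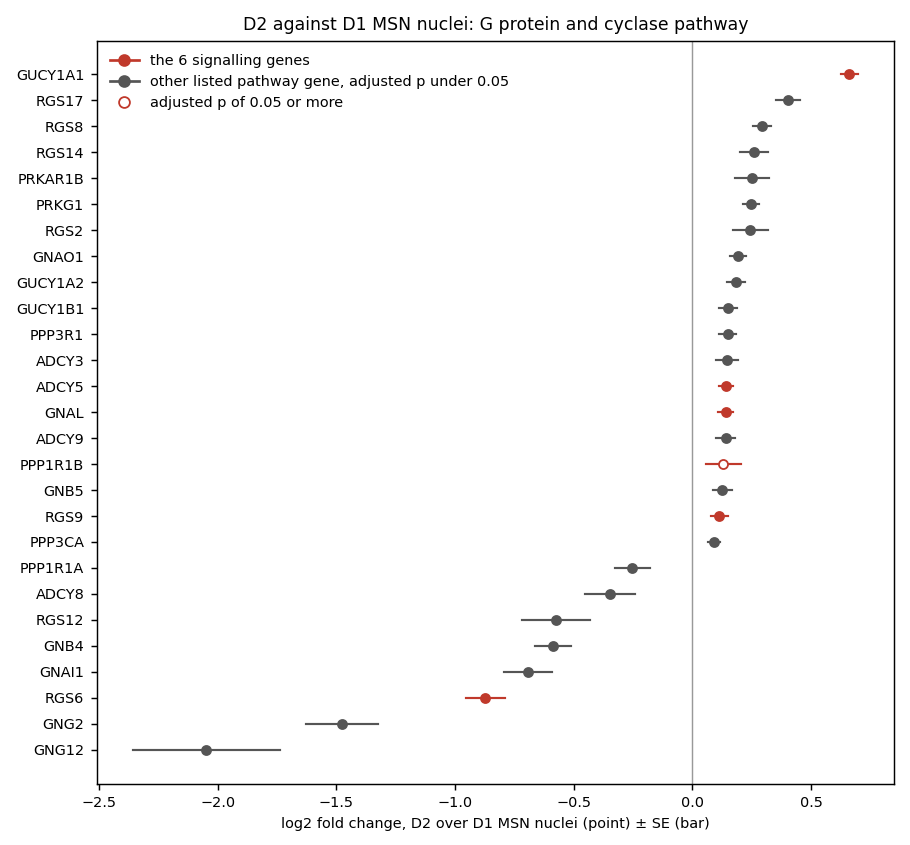
Log2 fold change of D2 over D1 MSN nuclei (x axis; point ± SE) for the 6 signalling genes in red and for the 21 other listed genes with an adjusted p under 0.05 in grey; the open point is PPP1R1B, which did not pass. RGS6 (-0.87) lies with GNAI1, GNG2 and GNG12 on the left and GUCY1A1 (0.66) is the highest on the right.

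OVT73 and control libraries were then compared, to ask whether the transgene came with a change of these genes in any class tested. The 9 classes with at least 10 nuclei in every library were tested. SST/NPY and cholinergic interneuron-like nuclei, with as few as 8 and 4 nuclei in a library, were left out. None of 44 member tests in 9 classes, nor any of 6 over all nuclei, had an adjusted p under 0.05 (edgeR, 3 against 4 libraries; 0 also with DESeq2). Unadjusted p was under 0.05 in 1 of the 44, GUCY1A1 in astrocyte-like nuclei. The share of all genes called was 0% in D1 and D2 MSN-like, PV/Th interneuron-like, neuroblast-like, oligodendrocyte-like, astrocyte-like and microglia-like nuclei and over all nuclei. It was 0.0135% in eccentric MSN-like (1 of 7416) and 0.0111% in OPC-like nuclei (1 of 9041). At an unadjusted p under 0.05 were 500 of the 12355 genes tested for D1 MSN-like nuclei and 551 of the 11668 tested for D2. The adjusted p of the members ran from 0.75 to 1.00.

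In D1 MSN-like nuclei ADCY5 was at 745, 761 and 878 CPM in OVT73 libraries 1 to 3 and at 675, 663, 969 and 1090 CPM in control libraries 1 to 4. All OVT73 values lay between the 2 lower and the 2 higher controls. The log2 fold change was -0.00 ± 0.17, with a 95% interval of -0.39 to 0.38. In D2 MSN-like nuclei it was at 789, 746 and 886 CPM in OVT73 and at 729, 647, 1019 and 1101 CPM in control libraries (-0.01 ± 0.17, interval -0.40 to 0.38).

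GNAL in D1 MSN-like nuclei was at 486, 495 and 472 CPM in OVT73 and at 461, 412, 551 and 466 CPM in control libraries. The groups overlapped, with a log2 fold change of 0.14 ± 0.10 and an interval of 0.935-fold to 1.29-fold. In D2 MSN-like nuclei the log2 fold change was 0.13 ± 0.10 (interval 0.935-fold to 1.27-fold).

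RGS6 in D1 MSN-like nuclei was at 1012, 1242 and 1240 CPM in OVT73 and at 1324, 1124, 1085 and 1079 CPM in control libraries (log2 fold change 0.11 ± 0.12). In D2 MSN-like nuclei it was at 489, 597 and 680 CPM in OVT73 and at 827, 522, 652 and 605 CPM in control libraries (-0.04 ± 0.16). Both pairs of groups overlapped. The log2 fold change of RGS9 was -0.10 in both types (SE 0.21 for D1, 0.20 for D2), with OVT73 libraries at 205 to 271 CPM and control libraries at 191 to 365 CPM over both types. GUCY1A1 gave -0.04 ± 0.20 and 0.01 ± 0.18.

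PPP1R1B had the lowest log2 fold changes of the 6 genes in MSNs, and they did not pass the test. In D1 MSN-like nuclei it was at 17.1, 16.9 and 27.9 CPM in OVT73 and at 23.7, 24.4, 53.7 and 30.8 CPM in control libraries. OVT73 library 3 was above control libraries 1 and 2, so that the groups overlapped. The log2 fold change was -0.59 ± 0.28 (edgeR adjusted p = 0.94; exact two-sided permutation p over the 35 splits = 0.20, where 0.0286 is the smallest possible), with an interval of -1.22 to 0.03. In D2 MSN-like nuclei it was -0.52 ± 0.29 (interval -1.18 to 0.13) and in eccentric MSN-like nuclei -0.62 ± 0.40 (-1.47 to 0.23). Without control library 3 the values in D1 and D2 were -0.30 and -0.25, and in eccentric nuclei the value was -0.22 without control library 4 and -0.92 without control library 2.

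**Figure D4:**
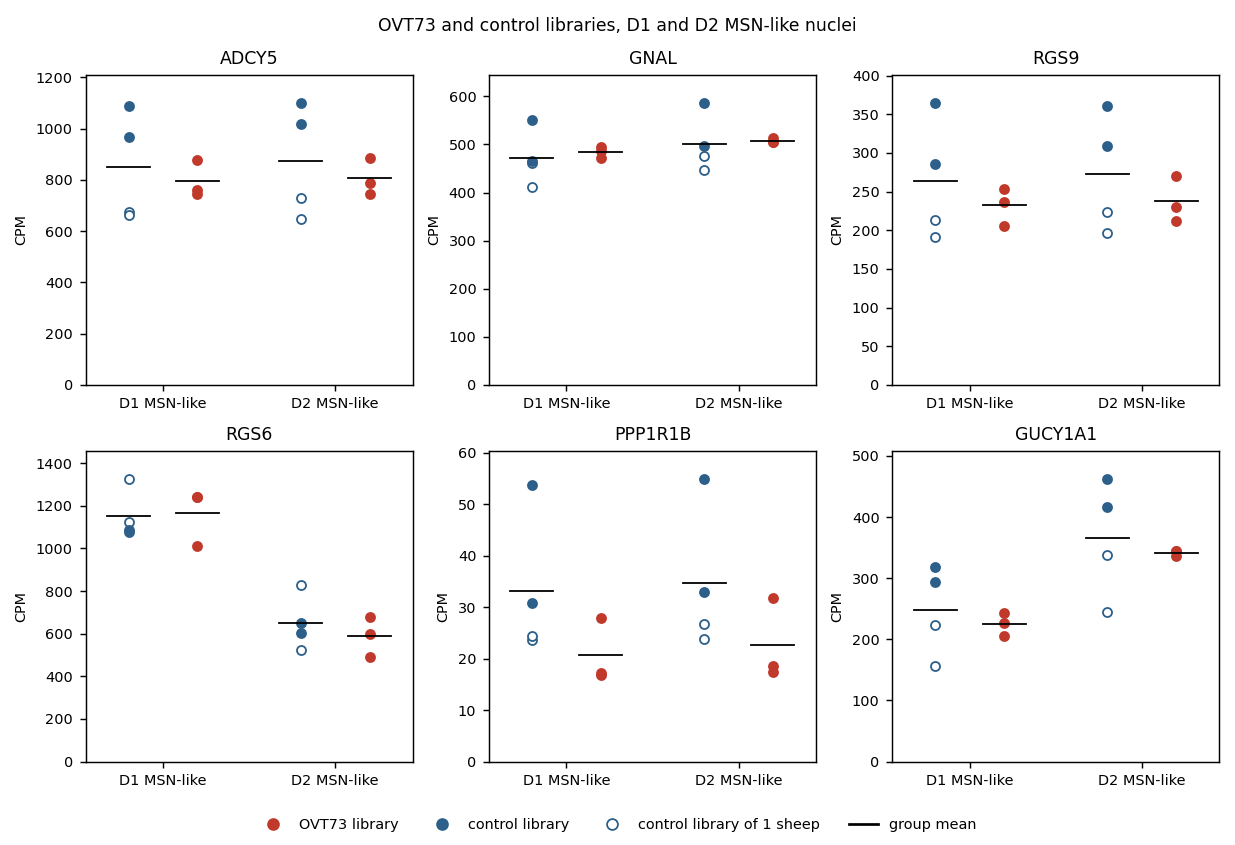
CPM of each gene (y axis, from 0) in D1 and D2 MSN-like nuclei, with 1 point per library, blue for control, open where the library held 1 sheep, and red for OVT73, and a bar at each group mean. OVT73 and control points overlap in every panel. The open control points of ADCY5, GNAL, RGS9, PPP1R1B and GUCY1A1 lie below the filled control points, by little for GNAL.

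The control libraries differed among themselves, and their values are given here by the number of sheep they held. In D1 MSN-like nuclei the libraries of 2 sheep were above those of 1 sheep, without overlap, for ADCY5 (mean 1029 against 669 CPM), RGS9 (326 against 202 CPM), GUCY1A1 (306 against 190 CPM) and PPP1R1B (42.2 against 24.1 CPM). GNAL differed less but also without overlap, at 508 against 436 CPM, and RGS6 was lower in libraries of 2 sheep, at 1082 against 1224 CPM. In D2 MSN-like nuclei ADCY5, RGS9, GUCY1A1 and PPP1R1B were 1.51 to 1.73 times as high in libraries of 2 sheep. GNAL was 1.17 times as high there, whereas RGS6 overlapped, at 628 against 674 CPM. In eccentric MSN-like nuclei ADCY5 (852 against 548 CPM) and RGS9 (151 against 75.8 CPM) were apart, whereas GNAL, RGS6, PPP1R1B and GUCY1A1 overlapped. With 2 libraries of each kind, a lack of overlap often arises by chance, and the difference was not tested. Number of sheep, animal and library cannot be told apart. The share of all genes that separated in the same way was not counted. Since all OVT73 libraries held 2 sheep, the comparison was repeated with the 5 libraries of 2 sheep. The log2 fold changes in D1 MSN-like nuclei were then -0.26 for ADCY5, -0.38 for RGS9, -0.33 for GUCY1A1, -0.92 for PPP1R1B, 0.05 for GNAL and 0.22 for RGS6, and again none passed the test (edgeR adjusted p of 0.67 or more).

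Over the 9 classes tested, D1 and D2 included, the log2 fold changes of the members ran from -1.35 to 0.21. Of all 44, 31 were negative, RGS9 in 7 of 9 classes and PPP1R1B in 5 of 5. The median over all genes was also below 0 in each of these classes, from -0.03 to -0.01. Of all genes, 5460 of 12355 were higher in OVT73 in D1 MSN-like and 3265 of 6691 in PV/Th interneuron-like nuclei, with the other classes between. The 44 tests share the same libraries and are not separate observations. The lowest member value, GUCY1A1 in astrocyte-like nuclei, rested on 108 UMIs, at 12.9, 6.4 and 8.3 CPM in OVT73 and at 6.3, 16.4, 36.2 and 37.3 CPM in control libraries. These groups overlapped, the exact two-sided permutation p was 0.257, and the edgeR adjusted p was 1.00. RGS9 in neuroblast-like nuclei was the only member test whose groups did not overlap, on 83 UMIs: 44.0, 47.1 and 31.8 CPM in OVT73 and 53.0, 61.9, 85.0 and 50.9 CPM in control libraries. Of all genes tested in that class 2.57% were lower in OVT73 libraries without overlap, and 253 of 4361 did not overlap in either direction. For RGS9 there, the exact two-sided permutation p was 0.0857, and the edgeR adjusted p was 1.00. RGS6 in OPC-like nuclei gave -0.00 ± 0.36, and ADCY5 in oligodendrocyte-like nuclei 0.14 ± 0.21. Over all nuclei, where fewer cells of a type and less RNA per cell cannot be told apart, the values ran from -0.37 for PPP1R1B to 0.27 for GNAL. Of the other pathway genes none passed the test in any class (29 to 65 tested per class, 72 over all nuclei).

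**Figure D5:**
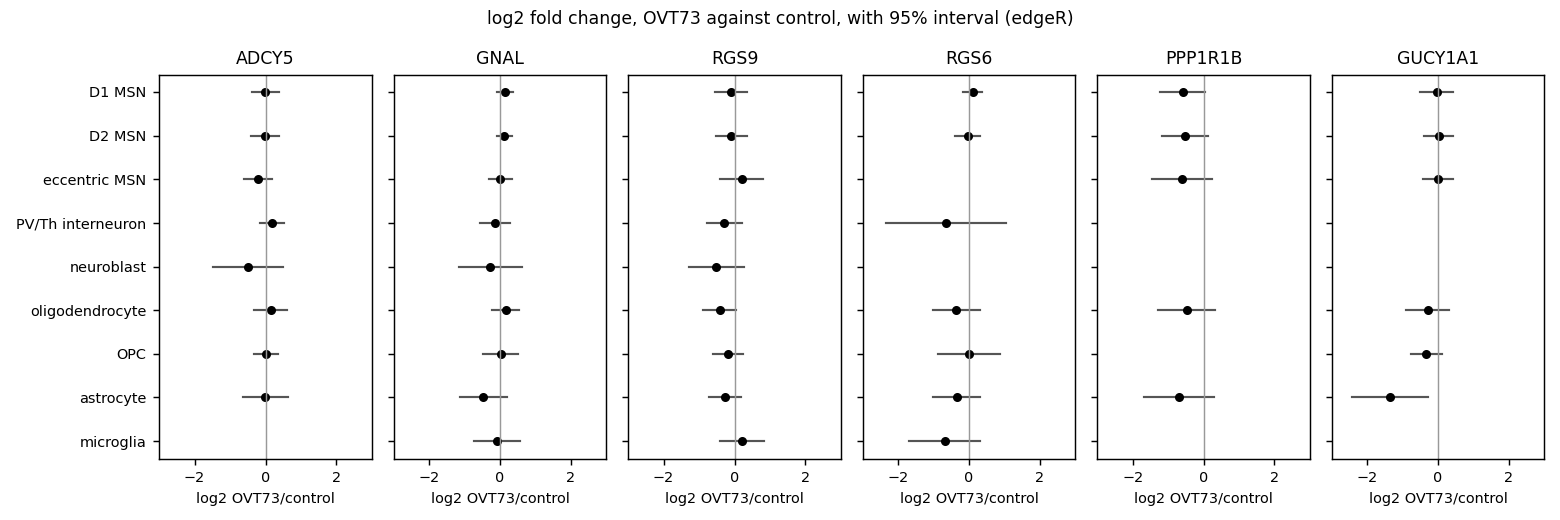
Log2 fold change of OVT73 over control (x axis; point, with a line for the 95% interval from edgeR) of each gene in each of the 9 classes tested (y axis); a class without a point had too few UMIs of that gene. The intervals include 0 except that of GUCY1A1 in astrocytes (-1.35), whose adjusted p was 1.00.

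Whether the difference between D2 and D1 nuclei was itself another in OVT73 libraries was tested as an interaction in the 14 sums. It passed for 0 of the 6 members (edgeR), with 0 also by DESeq2, where 0.0246% of all genes passed (3 of 12177; 508 at an unadjusted p under 0.05). RGS6 had the largest value in size. Its log2 difference of D2 minus D1 was -1.09, -1.11 and -0.85 in OVT73 libraries 1 to 3 and -0.62, -1.09, -0.66 and -0.68 in control libraries 1 to 4. Control library 2 lay with the OVT73 libraries, and the other 3 control libraries lay nearer to 0 than any OVT73 library. The interaction was -0.27 ± 0.11 (edgeR adjusted p = 1.00), and -0.34 without control library 2 (edgeR adjusted p = 0.038). The fit without control library 2 called 4 of 12700 genes. Over the 7 fits that left out 1 library each the RGS6 interaction ran from -0.35 to -0.20, and no other of them passed. GUCY1A1 gave 0.05 ± 0.07, with means of 0.69 in OVT73 and 0.64 in control libraries, and ADCY5, GNAL and RGS9 gave -0.05 to -0.02.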

How the data were processed

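Nuclei of the sheep striatum were sequenced by the authors as 7 droplet libraries (10x Genomics 3' chemistry). They deposited UMI counts per feature and barcode, made with Cell Ranger 7.0.0 and STAR 2.7.2a on Oar_rambouillet_v1.0 with Ensembl release 107; the deposited counts are raw and cover the barcodes that Cell Ranger called nuclei, before quality control or normalization. Nuclei with 200 to 7500 genes and at most 5% mitochondrial UMIs were kept. Scrublet's own threshold marked 129 of 33957, so the 4% with the highest scores in each library were removed as doublets (1358). The 3000 most variable genes, 30 components, a Harmony-type correction between libraries and multilevel (Louvain) clustering (scanpy 1.11.5, igraph 0.11.9, 20 neighbours, resolution 1.0) gave 29 clusters, 14 of them unnamed. Naming limits were set after marker profiles were seen. The D1 MSN and D2 MSN sort used marker UMIs alone. The members and all lists were chosen with earlier results of these data known.

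UMIs were summed per library and class (at least 10 nuclei in every library) and tested in edgeR 4.0.16 (R 4.3.3; filterByExpr, TMM, robust quasi-likelihood, two-sided; adjusted p under 0.05), with a library block for D2 against D1. DESeq2 1.42.0, other scalings, filters, sorts and libraries left out were alternatives. The fits were tested on simulated data. Named were the 6 members, listed genes that passed the test, and their direct paralogues and partners. The 5000 and 1000 UMI depths were for shares only. Summed UMIs per library ran from 4500703 to 19848273 in D1 MSN-like and from 20428 to 318698 in cholinergic interneuron-like nuclei. Gene coordinates and sequences were not used here.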

Additional observations from a re-analysis of the deposited data

Results flagged for a closer look

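In each group of 4 control libraries, the highest and lowest values were compared with the rest by Dixon's ratio of the gap to the range, over 77 groups, of which chance alone flags about 1 in 20. There were 3 values that stood apart. RGS9 in PV/Th interneuron-like nuclei was at 86.3 CPM in control library 3, with the other control libraries at 54.2 to 54.6 CPM. PPP1R1B in neuroblast-like nuclei was at 17.0 CPM in control library 4 and at 0 in the other 3, on 12 UMIs in all 7 libraries, and with 3 zeros the ratio takes its highest value whatever the other library holds. The log2 difference of D2 minus D1 nuclei for RGS6 was -1.09 in control library 2, and -0.68 to -0.62 in the other control libraries.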

How the results depend on the processing

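For D2 against D1 nuclei, 5 members passed the test, and RGS6 and GUCY1A1 passed in every alternative run. By cluster 3 passed and with a looser sort 3. Without the replicate block (library) and in OVT73 libraries only, 2 passed, RGS6 and GUCY1A1. With 1 library left out 4 to 5 passed. Over the alternatives other than leaving out 1 library, 13 member calls were lost, some of them in runs not listed here. In OVT73 against control 0 passed in any alternative, and 0 with any 1 library left out. For the interaction 0 to 1 passed with 1 library left out (RGS6 without control 2, where 4 of 12700 genes passed). Of all genes tested, D2 against D1 called 1509 of 12177 (796 higher), 1295 of 13046 by cluster and 1397 of 12852 with the looser sort. It called 139 of 10990 without the block and 1476 of 12177 without TMM factors (586 higher). In control libraries only it called 815 of 11664, and in OVT73 libraries only 775 of 12826. DESeq2, with no filter on low counts before the fit, called 959 of 21572. None of the values below that changed sign passed the test, and the cause was not tested.

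The OVT73 log2 fold changes that changed sign are given by class. With DESeq2, ADCY5 was 0.035 in D1 and 0.020 in D2 and 0.0070 in astrocyte, RGS6 was 0.025 in OPC nuclei. With no filter on low counts, ADCY5 was 0.034 in D1 and 0.037 in D2 and 0.067 in astrocyte, RGS6 was 0.002 in D2 and 0.048 in OPC nuclei. With equal numbers of nuclei, ADCY5 was 0.011 in D1 and -0.0571 in OPC, GUCY1A1 was -0.018 in D2, GNAL was -0.081 in eccentric and 0.041 in PV/Th and 0.32 in microglia, RGS6 was 0.048 in OPC, RGS9 was -0.044 in microglia nuclei. In libraries of 2 sheep only, RGS6 was 0.028 in D2 and 0.35 in PV/Th and 0.42 in OPC, GUCY1A1 was -0.24 in D2 and -0.081 in eccentric and -0.094 in all nuclei, RGS9 was -0.22 in eccentric and -0.22 in all nuclei, GNAL was -0.039 in oligodendrocyte and -0.13 in OPC, ADCY5 was -0.021 in OPC and -0.095 in all nuclei. Without TMM factors, GUCY1A1 was -0.098 in D2 and -0.0706 in eccentric, GNAL was -0.070 in eccentric and -0.067 in OPC, ADCY5 was -0.079 in OPC, RGS9 was -0.082 in all nuclei, RGS6 was -0.0088 in all nuclei. Clustered with the members and listed genes, ADCY5 was -0.0712 in PV/Th nuclei. With doublets kept, ADCY5 was -0.024 in OPC and 0.11 in astrocyte, GNAL was -0.017 in OPC, RGS6 was 0.0040 in OPC nuclei. By cluster, the interactions of ADCY5 and RGS9 were 0.0017 and 0.0007.

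With 1 library left out, values that crossed 0 are given as their range. D1 nuclei gave ADCY5 -0.10 to 0.17, RGS9 -0.21 to 0.13, GUCY1A1 -0.21 to 0.073. D2 nuclei gave ADCY5 -0.12 to 0.14, RGS9 -0.22 to 0.091, RGS6 -0.13 to 0.090, GUCY1A1 -0.14 to 0.11. Eccentric nuclei gave GNAL -0.10 to 0.12, RGS9 -0.035 to 0.50, GUCY1A1 -0.24 to 0.17. Oligodendrocyte nuclei gave ADCY5 -0.16 to 0.31. OPC nuclei gave ADCY5 -0.056 to 0.075, GNAL -0.15 to 0.15, RGS6 -0.24 to 0.34. Astrocyte nuclei gave ADCY5 -0.17 to 0.26. Microglia nuclei gave GNAL -0.29 to 0.14. All nuclei gave RGS9 -0.11 to 0.28, RGS6 -0.046 to 0.25. The interaction gave RGS9 -0.048 to 0.031, GUCY1A1 -0.049 to 0.11.

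Clustering with the members and listed genes also moved levels by more than the library SD: RGS6 to 77.4 CPM in eccentric MSN-like nuclei, and in PV/Th nuclei GNAL to 100.0, RGS6 to 483 and GUCY1A1 to 64.4 CPM. The cause was not tested. Low UMI counts limit the levels, and 10 of the tests of a member in a class were not made for them: PPP1R1B in PV/Th, neuroblast, OPC and microglia, GUCY1A1 in PV/Th, neuroblast and microglia, RGS6 in eccentric and neuroblast, and ADCY5 in microglia nuclei.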

Other observations

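Some clusters that the marker rules left unnamed held the 6 genes at levels of their own, given here as values. A cluster of 229 nuclei, 21 or more in every library, was led by ZNF804A, NETO1 and HS3ST4. Over all other clusters it raised all 8 MSN markers and 2 of 4 D2 markers. Over the other MSN clusters, the measure that named the D1 and D2 classes, it raised only DRD2 of the D2 markers. It had ADCY5 at 1075 ± 134 CPM, GNAL at 513 ± 26.8 CPM and GUCY1A1 at 345 ± 79.0 CPM (SD, n = 7 libraries), close to or above the D2 MSN-like levels. RGS6, however, was at 64.2 ± 50.2 CPM there, 12.1 to 160 CPM by library, below every D2 MSN-like library. Adding this cluster to the nuclei sorted, a choice made after seeing the data, took the log2 fold change of RGS6 in D2 over D1 from -0.87 to -1.02.

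A cluster of 417 nuclei led by CPNE4, ZMAT4 and KCNIP4, with 3 of 6 interneuron markers raised, had RGS6 at 717 ± 362 CPM and GUCY1A1 at 110 ± 41.3 CPM. A small cluster of 39 nuclei led by CEMIP, AOX1 and COLEC12 held 133 UMIs of RGS6 and 27 of GUCY1A1, with 2 of GNAL. These clusters were not compared between groups.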
